A study of Mus musculus with 6 samples.

Results

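The genes described here are 5 keratins (Krt7, Krt8, Krt18, Krt19 and Krt14), 3 genes of cell-cell junctions (Cldn1, Dsp and Cdh1) and 2 genes best known from urothelium and mesothelium (Upk3b and Psca). They were chosen by name, together with every array probe annotated to them. This gave 10 of the 17658 named genes and 14 of the 45197 probes for genes. RNA of 6 samples of mouse embryonic fibroblasts was hybridised to Illumina Mouse-6 bead arrays, 1 array each. The reconstituted cells, labelled IKKa+/+reconstituted, gave 2 samples, IKKa-null cells (IKKa-/-) gave 2, and wild-type cells gave 2. All were cultured in 10% FCS, a serum supplement, to 80% confluency, with no further treatment in the labels. The labels do not say how IKKa was put back, whether a line was 1 clone, or which age or strain the embryos had. Nor do they say that samples of a group are separate cultures. The p-values then reflect only how far these samples spread, and that spread may be technical.

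Keratins are the intermediate filament proteins of epithelia, and each filament is built from a type I keratin paired with a type II keratin. Krt8 and Krt18 are the basic pair of simple, single-layered epithelia, often joined by Krt7 (type II) and Krt19 (type I), while Krt14 pairs with Krt5 in the basal layer of stratified epithelia such as epidermis. Claudin-1, encoded by Cldn1, forms strands of tight junctions, which seal neighbouring cells together. Desmoplakin, encoded by Dsp, ties keratin filaments to desmosomes, and E-cadherin, encoded by Cdh1, holds epithelial cells together at adherens junctions. Upk3b belongs to the uroplakins, membrane proteins of the urothelial surface, and is also a marker of mesothelium. Psca encodes a lipid-anchored surface protein of prostate, bladder and stomach epithelium. IKKa is a kinase of the NF-kappa B pathway, and mice without it have an epidermis that thickens but does not differentiate, through a role that does not need its kinase activity.

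The sequences just before the RefSeq gene starts of 3 genes are shown because each was brightest in another group: Krt7 in IKKa-null, Cldn1 in reconstituted and Upk3b in wild-type cells. RefSeq windows of build GRCm38.p6 were matched for 7 of the 10 genes, and each window holds the 200 bases before the start, read 5′ to 3′ on the gene's strand. Capitals mark matches, on either strand, to a kappa B motif, the consensus bound by NF-kappa B, or to CACCTG, the E-box core read by Snail and Zeb repressors. The AP-1 motif TGANTCA was searched as well and had no match in these 3 windows.
Krt7, chr15:101412203-101412402, plus strand: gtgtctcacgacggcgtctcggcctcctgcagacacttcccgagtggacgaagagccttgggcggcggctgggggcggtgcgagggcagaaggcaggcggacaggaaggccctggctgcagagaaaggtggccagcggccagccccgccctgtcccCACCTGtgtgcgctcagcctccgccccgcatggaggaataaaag
Cldn1, chr16:26371840-26372039, minus strand: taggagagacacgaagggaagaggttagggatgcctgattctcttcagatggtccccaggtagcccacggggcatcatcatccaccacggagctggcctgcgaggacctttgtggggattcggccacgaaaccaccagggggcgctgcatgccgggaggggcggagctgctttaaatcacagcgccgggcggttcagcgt
Upk3b, chr5:136038296-136038495, plus strand: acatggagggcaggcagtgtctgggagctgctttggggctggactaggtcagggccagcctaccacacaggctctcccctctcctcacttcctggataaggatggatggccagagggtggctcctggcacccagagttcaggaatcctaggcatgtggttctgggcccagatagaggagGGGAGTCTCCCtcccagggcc
The Krt7 window held 1 CACCTG, 44 bases before the start. The Cldn1 window held none of the motifs. The Upk3b window held 2 overlapping kappa B matches, which start 21 and 20 bases before the gene start. Of 32851 windows of this length, 6.07% held the kappa B motif, 5.48% held TGANTCA and 13.9% held CACCTG. A match describes these letters only.

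A probe counted as above background on an array where under 1% of 384 background probes, mostly for immune-receptor gene segments, reached its intensity. That limit lay between 150.2 and 168.4 raw intensity units, and the median of the background probes between 100.9 and 114.5. The lines also differed in construct and sex-linked sequences. SV40 large T antigen, an oncoprotein used to immortalise cells, had a target that read 212.3 and 203.2 in reconstituted, 88.6 and 111.8 in IKKa-null, and 4431.6 and 6076.1 in wild-type cells. The neomycin resistance target lay between 2230.7 and 3458.1 in reconstituted and IKKa-null cells and at 106.5 and 117.8 in wild-type cells. Xist was above background only in wild-type cells and the Y-linked Eif2s3y only in reconstituted and IKKa-null cells. In comparisons with wild-type cells, IKKa, large T, neomycin resistance, sex and line origin therefore cannot be told apart. Large T was also above background on both reconstituted arrays and on neither IKKa-null array, so IKKa and large T cannot be told apart between these 2 lines either. No probe carries the symbol Chuk, the gene of IKKa, which is not analysed here.

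Of 10 fibroblast markers with a probe, 8 were above background on both arrays in reconstituted, 9 in IKKa-null and 6 in wild-type cells. Their summed intensity was 17445.3 to 21710.9 in reconstituted, 5589.4 to 5972.6 in IKKa-null and 4880.1 to 5383.0 in wild-type cells. Whether the differences described here move with that sum was not tested. Lum was not above background in any group, and Vim, the vimentin filament gene of fibroblasts, was above background on both arrays only in IKKa-null cells. The Vim probe read 156.3 and 152.1 in reconstituted, 156.3 and 180.8 in IKKa-null, and 128.9 and 160.7 in wild-type cells, so a dim probe alone does not show that a gene was silent. Of 7 general epithelial markers with a probe, 0, 1 and 1 were above background on both arrays in reconstituted, IKKa-null and wild-type cells, the 1 being Krt19. Their summed intensities were 772.2 to 846.5, 988.8 to 1019.9, and 974.1 to 1126.1 in the same order. Krt8, Krt18, Cdh1, Cldn7 and Dsp were dim on every array.

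**Figure D1:**
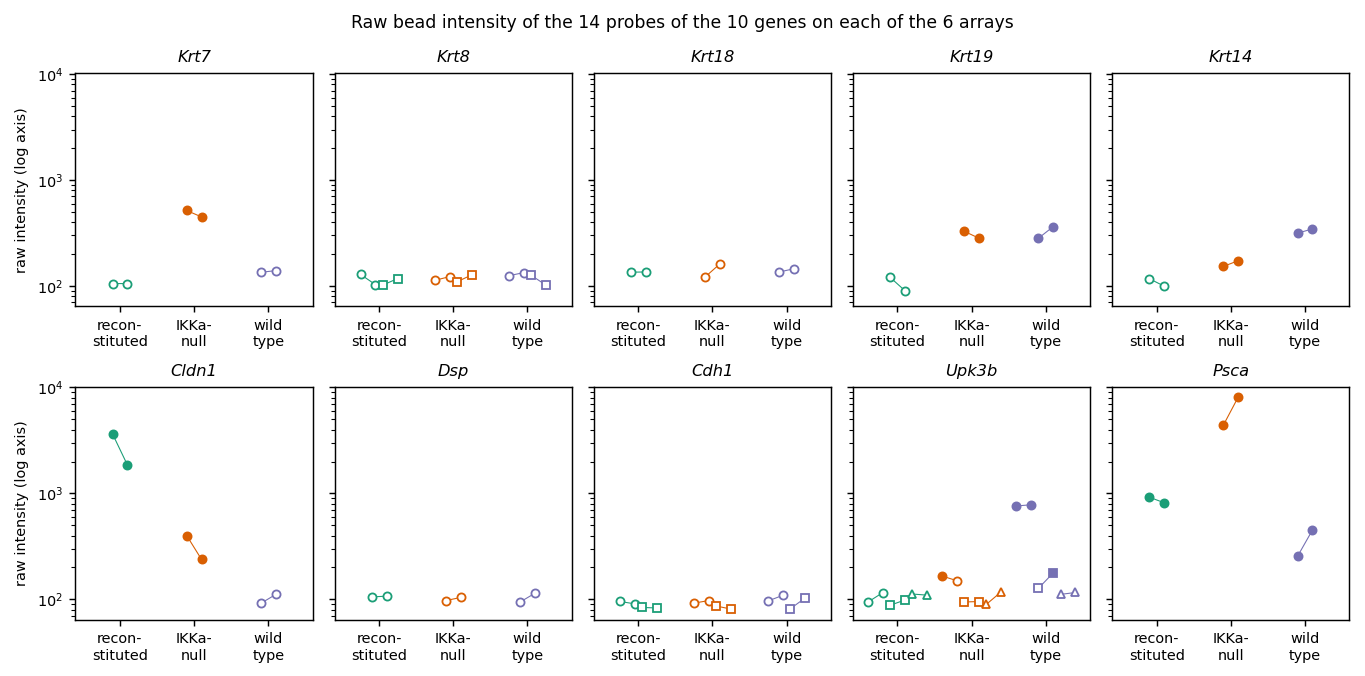
Raw bead intensity (log axis) of the 14 probes of the 10 genes in reconstituted, IKKa-null and wild-type cells, with lines joining replicate arrays. Filled points are above background on that array and open ones are not, and circles, squares and triangles are the different probes of a gene. Krt8, Krt18, Dsp and Cdh1 are open throughout, and Cldn1 in reconstituted and Psca in IKKa-null cells reach the highest values.

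Krt7 was bright in IKKa-null cells alone. Its intensity was 105.5 and 105.2 in reconstituted, 516.2 and 448.8 in IKKa-null, and 134.6 and 139.6 in wild-type cells. Only the IKKa-null arrays exceeded background, and the groups did not overlap. For a probe dim throughout a group the fold is a bound, set against the lowest signal above background there, and differences below are on the log2 scale after background correction and quantile normalization. Krt7 was at least 5.19-fold lower in reconstituted than in IKKa-null cells (difference -3.68, SE 0.211, limma adjusted p = 0.000182). It was at least 5.02-fold higher in IKKa-null cells than in the wild type (difference 2.97, SE 0.211, limma adjusted p = 0.000273). Between reconstituted and wild-type cells, both at background, Krt7 passed the test at -0.71 (limma adjusted p = 0.0371) but not under most alternatives, and no fold is given.

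Krt19 was dim in reconstituted cells and bright in the other groups. The probe read 120.8 and 90.4 in reconstituted, 328.5 and 282.4 in IKKa-null, and 281.8 and 363.4 in wild-type cells. Both reconstituted arrays lay at background, below all of the others. Krt19 was at least 2.80-fold lower in reconstituted than in IKKa-null cells (difference -2.76, SE 0.249, limma adjusted p = 0.000902) and at least 3.32-fold lower than in wild-type cells (difference -3.00, limma adjusted p = 0.000424). IKKa-null and wild-type values overlapped, with a difference of -0.24 that did not pass the test (95% interval -0.83 to 0.34, limma adjusted p = 0.495).

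Krt8 and Krt18, the primary pair of simple epithelia, were above background nowhere. The first Krt8 probe read 128.6 and 102.9 in reconstituted, 113.0 and 122.5 in IKKa-null, and 125.0 and 133.7 in wild-type cells. The second Krt8 probe read between 101.9 and 127.3 over the 6 arrays. The Krt18 probe read 135.0 and 135.6 in reconstituted, 121.4 and 161.6 in IKKa-null, and 135.5 and 145.5 in wild-type cells. The 3 probes therefore failed the filter and were not tested, and any level they had was not detectable against this background. Both mates of the usual simple keratin filament were thus undetected in the cells where Krt7 or Krt19 was bright.

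Krt14 followed another order, brightest in wild-type cells and dimmest in reconstituted cells. Its intensity was 117.3 and 99.7 in reconstituted, 153.1 and 173.1 in IKKa-null, and 315.4 and 345.6 in wild-type cells. The 3 groups did not overlap, and the IKKa-null arrays stood just above background. Krt14 was at least 3.46-fold lower in reconstituted than in wild-type cells (difference -3.04, limma adjusted p = 0.000125), and 3.60-fold lower in IKKa-null cells than in the wild type (difference -1.85, limma adjusted p = 0.000869). Between reconstituted and IKKa-null cells the difference was -1.19 (SE 0.18, limma adjusted p = 0.00724), with no fold because the bound is under 1. Without IKKa-null replicate 2 that difference was -1.16 and missed the threshold (limma adjusted p = 0.0597). Krt5, the type II partner of Krt14, was not above background on any array.

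Cldn1 had the widest span of group means on the log2 scale among the 6 tested genes. Its intensity was 3639.4 and 1856.6 in reconstituted, 400 and 237.9 in IKKa-null, and 91.5 and 111 in wild-type cells. Reconstituted arrays were highest, IKKa-null arrays intermediate and wild-type arrays at background, with no overlap. Cldn1 was 13.7-fold higher in reconstituted than in IKKa-null cells (difference 3.78, SE 0.392, limma adjusted p = 0.00158). That fold was 21.4 without IKKa-null replicate 1 and 8.77 without IKKa-null replicate 2, and the SD of the log2 signal over those 2 arrays was 0.91. Against wild-type cells, Cldn1 was at least 36.9-fold higher in reconstituted cells (difference 6.64, limma adjusted p = 0.000125). It was at least 2.70-fold higher in IKKa-null cells than in the wild type (difference 2.86, limma adjusted p = 0.00307), a bound of 1.73 without IKKa-null replicate 1 and 4.21 without IKKa-null replicate 2. Cldn1 was higher in reconstituted than in IKKa-null cells, while Krt7, Krt19, Krt14, Upk3b and Psca were lower there.

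Dsp and Cdh1 were dim on every array. The Dsp probe read 105.3 and 107.0 in reconstituted, 97.2 and 104.1 in IKKa-null, and 94.1 and 113.9 in wild-type cells. The 2 Cdh1 probes lay between 80.8 and 109 over the 6 arrays. The 3 probes of these genes were not tested, so in none of the lines was the desmosomal keratin linker or E-cadherin measured above background. A fit with no filter on dim probes called no difference for Krt8, Krt18, Dsp or Cdh1 in any comparison.

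Upk3b was a wild-type signal. Its brightest probe read 93.9 and 115.4 in reconstituted, 166.0 and 149.9 in IKKa-null, and 760.5 and 780.4 in wild-type cells. Of the other lines, only IKKa-null replicate 1 was above background, and the groups did not overlap. Upk3b was at least 9.64-fold lower in reconstituted than in wild-type cells (difference -4.56, limma adjusted p = 0.0001) and 10.7-fold lower in IKKa-null cells than in the wild type (difference -3.43, limma adjusted p = 0.000318). Reconstituted cells were also below IKKa-null cells (difference -1.14, SE 0.258, limma adjusted p = 0.0326), but leaving out any array except IKKa-null replicate 2 ended that call, and no fold is given. The remaining 2 Upk3b probes did not show the contrast at this size. The second probe was above background only on wild-type replicate 2, at 177.3, and with no filter on dim probes it was lower in reconstituted than in wild-type cells (difference -1.18, limma adjusted p = 0.0394). The third probe was at background on all 6 arrays, between 89.7 and 117.8.

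Psca was above background in all 6 samples, the only one of the 10 genes to be so. Its intensity was 921.1 and 816.3 in reconstituted, 4406.6 and 8110 in IKKa-null, and 254.2 and 448.4 in wild-type cells. IKKa-null arrays were highest and wild-type arrays lowest, with no overlap. Psca was 6.43-fold lower in reconstituted than in IKKa-null cells (difference -2.68, SE 0.366, limma adjusted p = 0.0049) and 21.9-fold higher in IKKa-null cells than in the wild type (difference 4.45, limma adjusted p = 0.000463). In reconstituted cells it was 3.41-fold higher than in wild-type cells (difference 1.77, limma adjusted p = 0.0108). Without wild-type replicate 1 this difference was 1.38 (limma adjusted p = 0.0579), and without reconstituted replicate 2 it was 1.52 (limma adjusted p = 0.0526). The uroplakins Upk1a, Upk1b, Upk2 and Upk3a were at background on all arrays, as were the mesothelial markers Wt1 and Lrrn4.

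Each of the 6 genes with a tested probe was called between reconstituted and IKKa-null cells, 1 higher and 5 lower. Of all 11992 tested probes 12.7% were called there, 6.15% higher and 6.59% lower. Between reconstituted and wild-type cells 2 were higher and 4 lower, against 35.4% of probes called, 16.8% higher and 18.6% lower. The 4 include Krt7, which was at background in both groups. Between IKKa-null and wild-type cells 3 were higher, 2 were lower and Krt19 was not called, against 28.0% of probes, 14.4% higher and 13.6% lower. Probes entered the test once 2 arrays exceeded background, so a probe that passed through its bright group alone, such as that of Krt7, had to differ. These counts are therefore a description, and the other 4 genes do not enter them. The 3 comparisons share groups and are not independent of each other. In these bulk samples, fewer cells expressing a gene and less RNA per cell cannot be told apart.

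**Figure D2:**
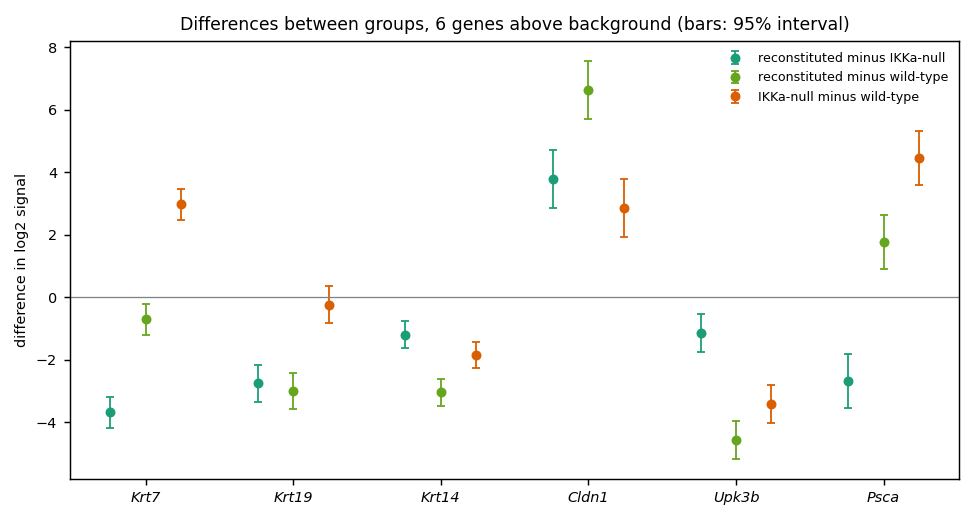
Differences in log2 signal between groups for the 6 tested genes, with bars for the 95% interval of the limma fit before any adjustment. Cldn1 is positive in all 3 comparisons, Krt14 and Upk3b are negative in all 3, and the IKKa-null minus wild-type interval of Krt19 spans 0.

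The wider keratin lists were mostly at background. Among 7 simple epithelial keratins, 3 were tested and 4 were dim on every array. All 3 were lower in reconstituted than in IKKa-null cells, and 2 were higher in IKKa-null cells than in the wild type, where 6.59% and 14.4% of all tested probes were called in these directions. Krt7 and Krt80 passed the filter through the IKKa-null arrays alone, so these counts are a description. Krt80, a keratin made in many epithelia, joined Krt7 in this. Its probe read 125.9 and 95.2 in reconstituted, 185.8 and 197.4 in IKKa-null, and 103.6 and 124.7 in wild-type cells, and only IKKa-null cells exceeded background. Krt80 was at least 1.33-fold lower in reconstituted than in IKKa-null cells (limma adjusted p = 0.00442) and at least 1.29-fold higher in IKKa-null cells than in the wild type (limma adjusted p = 0.00297). Of 12 stratified keratins with a probe, 9 were at background on all arrays, and Krt10 and Krt14 were tested. Krt10, a keratin of differentiating epidermis, read 244.7 and 219.3 in reconstituted, 159.1 and 163.5 in IKKa-null, and 211.7 and 250.4 in wild-type cells. It was 2.11-fold higher in reconstituted than in IKKa-null cells (limma adjusted p = 0.0146) and 2.14-fold lower in IKKa-null cells than in the wild type (limma adjusted p = 0.00811). IKKa-null replicate 2 was not above background for Krt10, so these folds rest partly on background signal. The first Krt10 call was lost without either IKKa-null array or without reconstituted replicate 2, and the second without the replicate 2 array of either the IKKa-null or the wild-type group.

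Among 21 tight junction genes with a probe, 13 were dim on every array and 6 were tested. Cldn1 was the only one higher in reconstituted than in IKKa-null cells, and Cldn12 and Cgn were lower. Of all tested probes 6.15% were higher and 6.59% lower there. Cldn12, another claudin, read 397.1 and 222.4 in reconstituted, 736.4 and 735.2 in IKKa-null, and 404 and 622.8 in wild-type cells. It was 2.98-fold lower in reconstituted than in IKKa-null cells (limma adjusted p = 0.0114) and 2.01-fold lower than in wild-type cells (limma adjusted p = 0.0257), calls lost without either IKKa-null array and, for the second, without replicate 2 of the wild-type or of the reconstituted group. Cgn, encoding cingulin of the tight junction plaque, read 89.8 and 104.3 in reconstituted, 257 and 177.6 in IKKa-null, and 292.6 and 273.7 in wild-type cells. It was at background only in reconstituted cells, as Krt19 was. Cgn was at least 2.78-fold lower there than in wild-type cells (limma adjusted p = 0.00239) and at least 1.58-fold lower than in IKKa-null cells (limma adjusted p = 0.0157). The bound against IKKa-null cells was 1.05 without IKKa-null replicate 1 and 2.38 without IKKa-null replicate 2, and the call was lost without either reconstituted array. The median change of the 6 tested genes was -0.0045 between reconstituted and IKKa-null cells, -0.11 between reconstituted and wild-type cells and 0.05 between IKKa-null and wild-type cells. Over all named genes the medians were -0.02, -0.14 and -0.12 in the same order.

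Of 15 desmosome genes with a probe, 9 including Dsp were at background on all arrays and 6 were tested, of which 4 were lower in reconstituted and 4 in IKKa-null cells than in wild-type cells. Over all tested probes 18.6% were lower in the first comparison and 13.6% in the second. The 4 were Pkp1, Pkp2, Ppl and Jup, which is named after its values were seen. Pkp1 and Ppl were above background on the wild-type arrays only, so they passed the filter through the group where they are high and had to differ. The median change of the 6 was -0.97 in reconstituted and -0.97 in IKKa-null cells, each against wild-type cells, beside -0.14 and -0.12 over all genes. With genes above background on all 6 arrays alone the medians were -0.12 and -0.26, and without background correction both were -0.51. Pkp1, encoding plakophilin 1, read 92 and 105.3 in reconstituted, 96.9 and 121.6 in IKKa-null, and 213.4 and 258.7 in wild-type cells, the only line above background. Its bounds were at least 2.09-fold lower in reconstituted (limma adjusted p = 0.000337) and at least 2.33-fold lower in IKKa-null cells (limma adjusted p = 0.000463), each against wild-type cells. Pkp2, a plakophilin also found outside stratified epithelia, read 156.6 and 113.9 in reconstituted, 201.6 and 155.5 in IKKa-null, and 332 and 337.7 in wild-type cells. It was at least 3.54-fold lower in reconstituted than in wild-type cells (limma adjusted p = 0.00398). The 3.16-fold deficit in IKKa-null cells (limma adjusted p = 0.0217) was lost without either wild-type array or IKKa-null replicate 2. Against wild-type cells, a second Pkp2 probe was lower in reconstituted (difference -1.81, limma adjusted p = 0.0021) and IKKa-null cells (difference -1.59, limma adjusted p = 0.00373). Ppl, encoding periplakin, read 123.8 and 108 in reconstituted, 109 and 116.6 in IKKa-null, and 167.4 and 169.6 in wild-type cells. It was at least 1.12-fold lower in reconstituted (limma adjusted p = 0.00416) and at least 1.25-fold lower in IKKa-null cells (limma adjusted p = 0.00445) than in wild-type cells. The first Ppl bound fell under 1 without wild-type replicate 1 or without reconstituted replicate 1, although the difference still passed. Between reconstituted and IKKa-null cells, limma called 0 of the 6, and 0 had an unadjusted p under 0.05. Of all tested probes 12.7% were called there, so 0 of so few genes is a description only.

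The adherens junction list held 11 genes with a probe, of which 8 were tested and 2, including Cdh1, were dim throughout. Cdh3, encoding P-cadherin of basal epithelial cells, read 136 and 140.6 in reconstituted, 126.7 and 122.2 in IKKa-null, and 175.2 and 208.2 in wild-type cells. Above background in wild-type cells alone, it was at least 1.45-fold lower in reconstituted (limma adjusted p = 0.00552) and at least 1.62-fold lower in IKKa-null cells (limma adjusted p = 0.00308). The Cdh3 probe passed the filter through the wild-type arrays alone and had to differ, so these values are a description. Nectin2, an adhesion receptor of adherens junctions, read 174.1 and 167.4 in reconstituted, 326.9 and 327.2 in IKKa-null, and 212.8 and 303.7 in wild-type cells. It was 2.87-fold lower in reconstituted than in IKKa-null cells (limma adjusted p = 0.00674) and 2.18-fold lower than in wild-type cells (limma adjusted p = 0.00971), calls lost without IKKa-null replicate 1 and without wild-type replicate 2. No other change in this list passed. Over all tested probes 6.59% were lower in reconstituted than in IKKa-null cells. Against wild-type cells 18.6% were lower in reconstituted and 13.6% in IKKa-null cells.

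Of 9 hemidesmosome and epithelial basement membrane genes with a probe, 6 were tested and 2 were dim on all arrays. Itga6, Itga3 and Lamb3 were lower in reconstituted than in IKKa-null cells, where 6.59% of all tested probes were lower. Itga3, an integrin subunit that binds laminins, read 656.4 and 402.1 in reconstituted, 2494.1 and 2307.8 in IKKa-null, and 605.4 and 611.2 in wild-type cells. Like Krt7 and Psca it was highest in IKKa-null cells, 4.68-fold lower in reconstituted than in IKKa-null cells (limma adjusted p = 0.000819) and 4.10-fold higher in IKKa-null cells than in the wild type (limma adjusted p = 0.00082). Itga6, the integrin subunit of hemidesmosomes, read 1479.3 and 865.1 in reconstituted, 2022.3 and 2382.4 in IKKa-null, and 239 and 296.6 in wild-type cells. It was 6.22-fold higher in reconstituted (limma adjusted p = 0.000189) and 10.8-fold higher in IKKa-null cells (limma adjusted p = 9.16e-05) than in wild-type cells. Its 1.73-fold deficit in reconstituted against IKKa-null cells (limma adjusted p = 0.0279) was lost without any 1 array. A second Itga6 probe missed the threshold there (difference -0.81, limma adjusted p = 0.0527). Against wild-type cells that probe was higher in reconstituted (difference 1.66, limma adjusted p = 0.00219) and IKKa-null cells (difference 2.47, limma adjusted p = 0.000545). Lamb3, a chain of epithelial laminin, read 80.7 and 97 in reconstituted, 225.9 and 196.6 in IKKa-null, and 140.8 and 200.7 in wild-type cells. It was at least 1.57-fold lower in reconstituted than in IKKa-null cells (limma adjusted p = 0.00631) and at least 1.08-fold lower than in wild-type cells (limma adjusted p = 0.0088). The bound against wild-type cells was lost without reconstituted replicate 1, and also without wild-type replicate 2, the only wild-type array above background.

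Among 11 urothelial and mesothelial genes with a probe, 8 were at background throughout and Upk3b, Psca and Msln were tested. Msln encodes mesothelin, a surface protein of mesothelium. It read 528 and 361 in reconstituted, 2132.7 and 2325.2 in IKKa-null, and 360.1 and 419.6 in wild-type cells. Its high group was that of Psca and Krt7, and it was 5.34-fold lower in reconstituted than in IKKa-null cells (limma adjusted p = 0.000304) and 6.53-fold higher in IKKa-null cells than in the wild type (limma adjusted p = 0.000146). Reconstituted and wild-type cells differed in Msln by 0.29, short of the threshold (limma adjusted p = 0.202). The summed intensity of 5 mesothelial markers was 792.2 to 936.1 in reconstituted, 2825.7 to 2963.9 in IKKa-null and 1631.2 to 1782.7 in wild-type cells. Of these, 1, 2 and 3 were above background on both arrays in the same order. Msln, Krt19 and Upk3b are themselves among the 5. Msln alone, at 2132.7 and 2325.2, made up most of the IKKa-null sum, while Upk3b was brightest in wild-type cells. Whether cells of another type had a part in these differences was not tested.

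**Figure D3:**
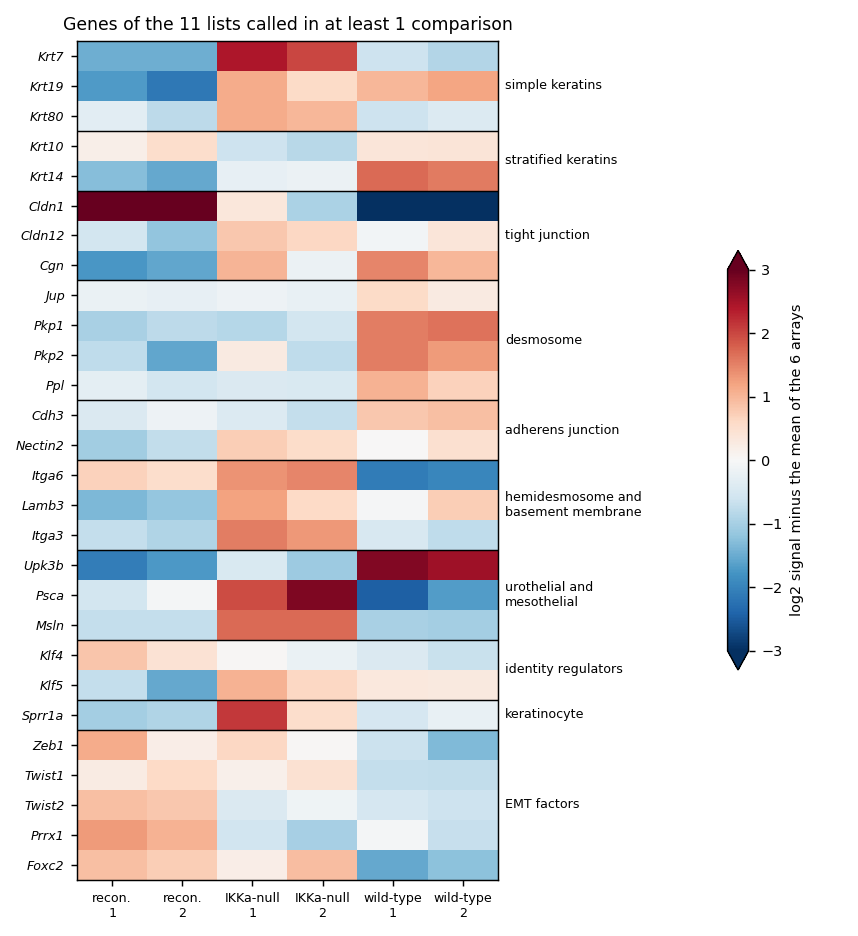
Log2 signal of each gene of the 11 lists called in at least 1 comparison, shown as the difference from its mean over the 6 arrays, with colours limited at -3 and 3 (recon., reconstituted; EMT, epithelial to mesenchymal transition). Krt7, Psca, Msln and Itga3 are reddest in IKKa-null cells, the desmosome genes in wild-type cells and Cldn1 in reconstituted cells.

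Regulators of epithelial identity were sparse. Of 12 with a probe, 9 were at background on all arrays, and Klf4 and Klf5 were tested. Klf5, a factor of proliferating epithelium, read 542.6 and 260.2 in reconstituted, 1407.1 and 1171.7 in IKKa-null, and 797.1 and 923 in wild-type cells. It was 3.88-fold lower in reconstituted than in IKKa-null cells (limma adjusted p = 0.00709) and 2.68-fold lower than in wild-type cells (limma adjusted p = 0.0107), calls lost without IKKa-null replicate 1 and without either wild-type array. Klf4, a factor of differentiating epidermis, read 857.4 and 456.7 in reconstituted, 467.2 and 455.2 in IKKa-null, and 330.7 and 344 in wild-type cells, and was 2.27-fold higher in reconstituted than in wild-type cells (limma adjusted p = 0.00639). Between reconstituted and IKKa-null cells Klf4 differed by 0.72 (limma adjusted p = 0.07), while a second probe passed (difference 1.07, limma adjusted p = 0.0218). Of 10 keratinocyte differentiation genes with a probe, 9 were at background throughout. Sprr1a, a cornified envelope precursor, read 100 and 107.1 in reconstituted, 328.4 and 184.7 in IKKa-null, and 120.7 and 145.8 in wild-type cells. Only IKKa-null cells exceeded background, so the probe passed the filter through that group alone and had to differ. The bounds were at least 1.95-fold lower in reconstituted than in IKKa-null cells (limma adjusted p = 0.021) and at least 1.89-fold higher in IKKa-null cells than in the wild type (limma adjusted p = 0.0343). Without IKKa-null replicate 1 these bounds were 1.13 and 1.10, without IKKa-null replicate 2 they were 3.37 and 3.26, and the first call was lost without either reconstituted array. The second was lost without either wild-type array or IKKa-null replicate 1.

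Of 7 transcription factors that drive or mark the mesenchymal state and have a probe, 6 were tested, and 5 were higher in reconstituted than in wild-type cells (Zeb1, Twist1, Twist2, Prrx1 and Foxc2), where 16.8% of all tested probes were. In IKKa-null cells 3 were higher than in wild-type cells (Zeb1, Twist1 and Foxc2), and 2 were higher in reconstituted than in IKKa-null cells (Twist2 and Prrx1). Of all tested probes 14.4% and 6.15% were higher in these 2 comparisons, in the same order. Twist1 and Twist2 are named after their values were seen. The median change of the 6 was 0.30 in reconstituted against IKKa-null cells, 1.48 in reconstituted against wild-type cells and 0.65 in IKKa-null against wild-type cells, beside -0.02, -0.14 and -0.12 over all genes. Prrx1, a homeobox factor of limb and craniofacial mesenchyme, read 407.6 and 263.8 in reconstituted, 160.2 and 154.9 in IKKa-null, and 178.9 and 166.9 in wild-type cells. It was 3.83-fold higher in reconstituted than in IKKa-null cells (limma adjusted p = 0.00505) and 2.91-fold higher than in wild-type cells (limma adjusted p = 0.00588). Replicate 2 of the IKKa-null and of the wild-type group was not above background, so these folds rest partly on background signal. A second Prrx1 probe gave differences of 1.65 and 1.25 (limma adjusted p = 0.00153 and 0.00262). Foxc2, a forkhead factor, read 294.7 and 212.3 in reconstituted, 190.3 and 290.3 in IKKa-null, and 107.6 and 132.4 in wild-type cells. It was at least 2.18-fold higher in reconstituted (limma adjusted p = 0.00185) and at least 1.81-fold higher in IKKa-null cells (limma adjusted p = 0.00328) than in wild-type cells. Zeb1, a repressor of Cdh1, read 619.3 and 274.5 in reconstituted, 411.3 and 335.8 in IKKa-null, and 203.9 and 183.1 in wild-type cells. It was 3.13-fold higher in reconstituted than in wild-type cells (limma adjusted p = 0.0156), a call lost without reconstituted replicate 1 or wild-type replicate 2. It was also 2.49-fold higher in IKKa-null cells than in the wild type (limma adjusted p = 0.04), a call lost without any array of those 2 groups. Of 4 tested mesenchymal intermediate filament genes, Vim among them, limma called 0 in each comparison, with 0 at an unadjusted p under 0.05. Of all tested probes 12.7% were called between reconstituted and IKKa-null, 35.4% between reconstituted and wild-type and 28.0% between IKKa-null and wild-type cells. The Vim probe lay near background, between 128.9 and 180.8, so its result does not show that Vim was unchanged.

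For each of the 6 tested genes, the 3 named genes with the most similar profile were found as the smallest root mean square distance between centred log2 values over the 6 arrays, with 1 probe per gene. The profile of Krt14 was matched most closely, by Pttg1 at 0.156, Gdpd5 at 0.196 and Ctnnbip1 at 0.243. Nearest to Krt7 were Yap1 at 0.211, Akr1c12 at 0.296 and Hoxc6 at 0.307. The closest profiles to Krt19 were those of Mcrip2 at 0.200, Llgl2 at 0.286 and Siglecg at 0.308. Upk3b lay nearest to Renbp at 0.251, then Bmper at 0.462 and Hoxb9 at 0.479. For Psca the distances were 0.481 to Eda2r, 0.508 to Xdh and 0.562 to Cyp2c55. Cldn1 had no profile as near, with 0.754 to Il33, 0.756 to Tgfbi and 0.773 to Gpr149. These distances are not scaled to a gene's own spread. The SD of the log2 signal over the 6 arrays was 3.01 for Cldn1 and 1.37 for Krt14. Among so many genes and 6 arrays, near profiles are only a description of which genes ranked alike.

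**Figure D4:**
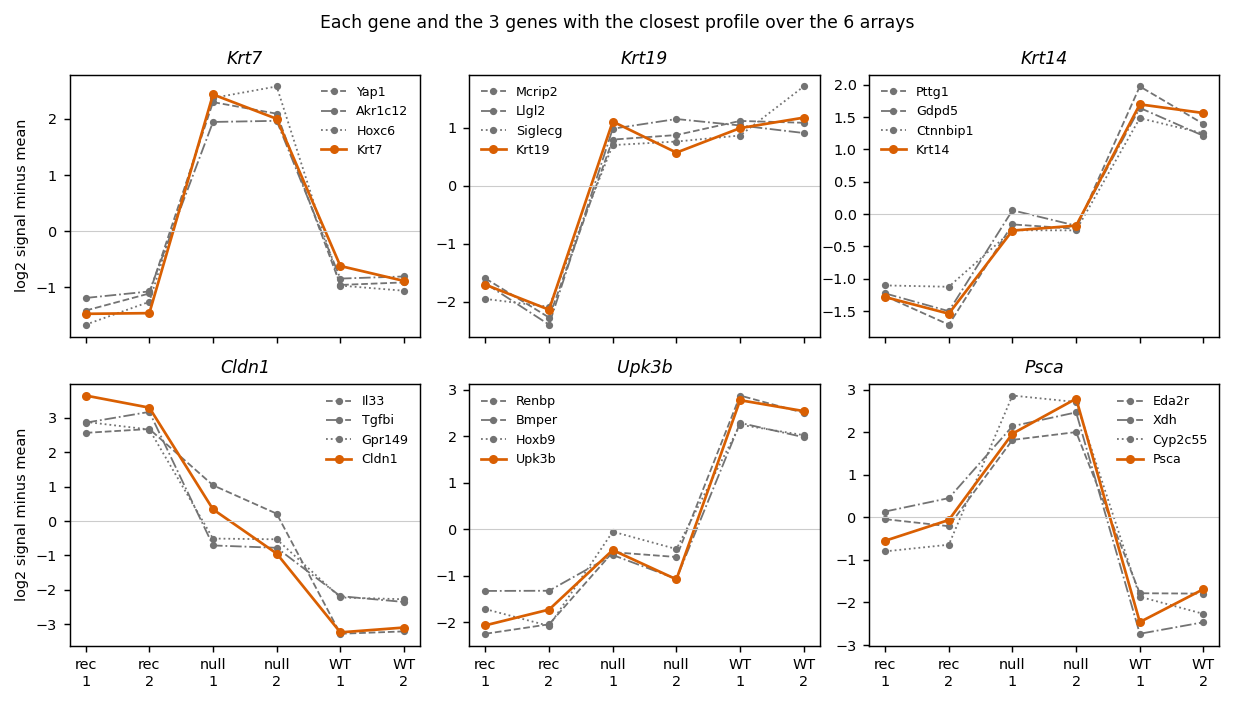
Centred log2 signal of each of the 6 tested genes (orange) and of the 3 named genes most like it, over the 6 arrays. The lines lie closest together for Krt14 and farthest apart for Cldn1.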

How the data were processed

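Gene expression was measured in mouse embryonic fibroblasts, 3 groups of 2 samples, with groups and replicate numbers taken from the titles. Per the file headers, each array file is a BeadStudio export with no normalization, and its deposited intensities for 46120 targets are average bead signals. The deposited series matrix holds intensity values whose columns share 1 distribution, and no source used here says how the authors made them. Quantile normalization of the array intensities, with no background correction, gave the matrix values within 0.0001 intensity units for 46116 targets. Gene names came from the annotation of the matrix probes: 46116 matched 1 matrix probe by rank, within 0.0001 intensity units, and 3933 of 3933 accessions in target names were the same there. Of the targets 29534 had a single symbol, 11 had several and 16575 had none, and the gene table of GRCm38.p6 changed 0 symbols. The array files name no build, so that table served for names only.

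No detection values are in the array files. Therefore limma 3.58.1 (R 4.3.3) corrected background with nec on 384 background probes (342 immune-receptor segments and 42 spike controls, offset 16), followed by log2 and quantile normalization. Probes above background on at least 2 of 6 arrays were tested, 11992 probes for 7586 genes. The 3 groups were fitted together (lmFit and eBayes, 3 residual degrees of freedom, prior 4.01), two-sided, with Benjamini-Hochberg adjustment over all tested probes and a call under 0.05. Where a gene had several probes, the brightest stands for it. A fold bound sets the bright group's mean against the dim group's mean, in which each array enters as its lowest signal above background or the probe's own signal if higher. The number of arrays limits the precision. The fit was tested on simulated data. Alternatives covered background correction, offset, normalization, filter, matrix values, the replicate block and leaving out each array.

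The genes and lists were chosen with earlier results of these data known. All 10 genes are named, with up to 3 called genes per list, those with the largest change, and the 3 most similar profiles. Lists are described by counts and medians with no test of the list.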

Additional observations from a re-analysis of the deposited data

How the results depend on the processing

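No called difference changed sign, but filters, the replicate block and leaving out the third group's arrays cannot alter one. Matrix values nearly repeat no background correction. For the 6 tested genes, 216 of 237 alternative values kept direction and side of the threshold. The 21 others were Krt7 and Psca between reconstituted and wild-type and Upk3b and Krt14 between reconstituted and IKKa-null cells. The probes called numbered 1527 between reconstituted and IKKa-null, 4243 between reconstituted and wild-type and 3358 between IKKa-null and wild-type cells. With arrays scaled to a common median they numbered 935, 2376 and 1923 in that order. Leaving out 1 array gave 534 to 1250, 2009 to 3726 and 1455 to 3477, the lowest without IKKa-null replicate 2 in the first and without wild-type replicate 2 in the others. Median scaling left 38.2% of calls higher in reconstituted than in IKKa-null cells, against 48.3% after quantile normalization, and 70.5% higher in IKKa-null cells than in the wild type, against 51.5%. It moved the median change of all probes to -0.16, -0.12 and 0.04, against -0.01, -0.08 and -0.07. The same replicate number gave correlated deviations of 0.364 between reconstituted and IKKa-null, 0.0473 between reconstituted and wild-type and 0.286 between IKKa-null and wild-type cells. With only 2 numbers and no label saying what a number marks, whether the numbers pair the samples was not settled. The replicate block gave 1636, 4513 and 3581 calls changed no call of the 10 genes, and added calls for Pkp2 (-0.91) and Klf4 (0.72) between reconstituted and IKKa-null cells. The Klf4 difference also passed without background correction (0.59), with offset 50 (0.67), with matrix values (0.59) and with the all-array filter (0.72).

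List members called were 19, 23 and 19 of 47 tested, beside 12.7%, 35.4% and 28.0% of all tested probes. Among probes above background on all 6 arrays they were 9, 11 and 7 of 28 tested. In the first of these comparisons 1129 of all 7961 such probes were called, and the shares for the others are not given here. Leaving out 1 array gave 12 to 17, 17 to 22 and 13 to 19, with 12 without IKKa-null replicate 1. Medians of lists moved as follows, and the cause was not tested. Between reconstituted and IKKa-null cells, tight junction genes had -0.84 with the all-array filter. Adherens junction genes had 0.20 without background correction and with matrix values, 0.22 with offset 50, 0.10 with median scaling and 0.18 to 0.37 leaving out 1 array, against 0.29. Hemidesmosome genes had -0.84 with median scaling and -0.40 with the all-array filter, against -0.60. Between reconstituted and wild-type cells, desmosome genes had -0.51 without background correction, -0.66 with offset 50, -0.52 with matrix values and -0.12 with the all-array filter. Adherens junction genes had -0.14 with median scaling, 0.090 with cyclic loess and -0.21 to 0.15 leaving out 1 array, against -0.03. Hemidesmosome genes had -0.27 with median scaling, -0.018 with cyclic loess and -0.16 to -0.033 leaving out 1 array, against -0.12. Mesenchymal transition factors had 0.997 without background correction and 1.003 with matrix values, against 1.48. Between IKKa-null and wild-type cells, desmosome genes had -0.51 without background correction and with matrix values, -0.65 with offset 50 and -0.26 with the all-array filter. Adherens junction genes had -0.043 with median scaling, -0.048 with cyclic loess, -0.11 with the all-array filter and -0.25 to -0.031 leaving out 1 array, against -0.17. Hemidesmosome genes had 0.30 without background correction and with matrix values, 0.37 with offset 50, 0.57 with median scaling, 0.53 with cyclic loess, 0.36 with the all-array filter and 0.27 to 0.74 leaving out 1 array, against 0.45. Median scaling ended both Krt10 calls and the Itga6 call between reconstituted and IKKa-null cells. With no filter on dim probes both Sprr1a calls, the Cldn12 call between reconstituted and wild-type cells and the Zeb1 and Pkp2 calls between IKKa-null and wild-type cells missed the threshold, with more probes tested. The other probes of a member entered only the fit with no filter on dim probes. Signal near background limits Krt14, Prrx1 in IKKa-null and wild-type cells, Upk3b, Krt10 and Pkp2 in IKKa-null cells, and every bound.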
